A study of Mus musculus with 14 samples.

Results

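Oligodendrocytes differentiated from mouse neural stem cells were profiled by RNA sequencing, and cultures labelled Qk-KO were compared with cultures labelled WT across all genes with a mean normalized count of at least 10. This left 17087 of the 46983 rows of the culture table, from 6 of the 14 libraries of the series. Each genotype had 3 cultures, at passages 7, 12 and 13, from an FvB/C57BL6 hybrid strain, with the genotype labels Qk-/- and WT. All 6 cultures were grown in Neurobasal medium that held the growth factor IGF-1 at 100 ng/ml and the thyroid hormone T3 at 50 ng/ml, along with B-27 supplement and GlutaMAX-I (2 mM). Every culture labelled Qk-KO also carries the tag 40HT and every culture labelled WT the tag EtOH, so this treatment and the genotype cannot be told apart. The labels name a Plp-CreERT2 driver and floxed Qk alleles only for the mice of the callosum samples. For the cultures, the sources used here give neither the driver of recombination nor whether they came from separate animals. The p-values therefore measure only the spread between these samples, which may be technical and takes in any difference between passages. The tags pair a 40HT with an EtOH culture at each passage, but the fitted means described below hold no term for the pair.

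The library columns hold a model's fitted means, which differ by 1 constant factor between the cultures of a genotype. Each gene therefore has 1 level per genotype and no value of its own per culture, and the spread between cultures is known only through the deposited standard error (SE). Levels are given as fitted CPM, each gene's fitted count set against the sum over all genes of its library, and a pair written as 1 value to another goes from WT to cultures labelled Qk-KO. Changes are log2 values of the authors' deposited table, turned to labelled Qk-KO minus WT. A gene was called higher or lower when its Benjamini-Hochberg adjusted p from DESeq2 was under 0.05. Fitted counts summed to between 38325833 and 48912999 per culture.

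Quaking, the product of Qk, is an RNA-binding protein of the STAR family that binds a short bipartite motif in RNA and regulates splicing, stability and transport of its targets. In the brain it is abundant in oligodendrocytes and astrocytes, and it is known for its part in myelin formation. Neural stem cells can give rise to neurons, astrocytes and oligodendrocytes, and IGF-1 and T3 are commonly used to promote the last of these.

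Markers of the oligodendrocyte lineage were present in both genotypes at levels that differed widely between members. Precursor markers summed to 5131 fitted CPM in WT and 5341 in cultures labelled Qk-KO, and myelin markers to 4120 and 3138. Per kb of exon, the precursor receptor gene Gpr17 had 207 fitted CPM in WT and 161 in cultures labelled Qk-KO, and Mbp, a main protein of myelin, had 61.97 and 53.9, while the myelin genes Mog and Mal were low in WT (7.16 and 2.46). All 18 precursor markers and 26 of 27 myelin markers passed the filter on the mean. The cultures also held RNA of astrocyte markers, with all 22 above the filter. Their summed level, which depends on the genes listed, was 17833 fitted CPM in WT and 6620 in cultures labelled Qk-KO. The WT sum lay above the precursor and myelin sums together. Gfap, the intermediate filament of astrocytes, had 950.2 fitted CPM per kb in WT. Neuron markers summed to 1001 and 2387, with 19 of 20 above the filter and Slc17a6, a glutamate carrier of excitatory neurons, at 0 in every culture. Of the microglia markers 3 of 18 passed it, with 6 at 0 in every culture (Itgam, Trem2, C1qa, C1qb, C1qc and Ly86), and their sums were 23.5 and 14.9. Every value below describes a whole culture, and such values do not show whether these markers lie in separate cells or in the same ones. Fewer cells of a type and less RNA per cell cannot be told apart either.

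**Figure D1:**
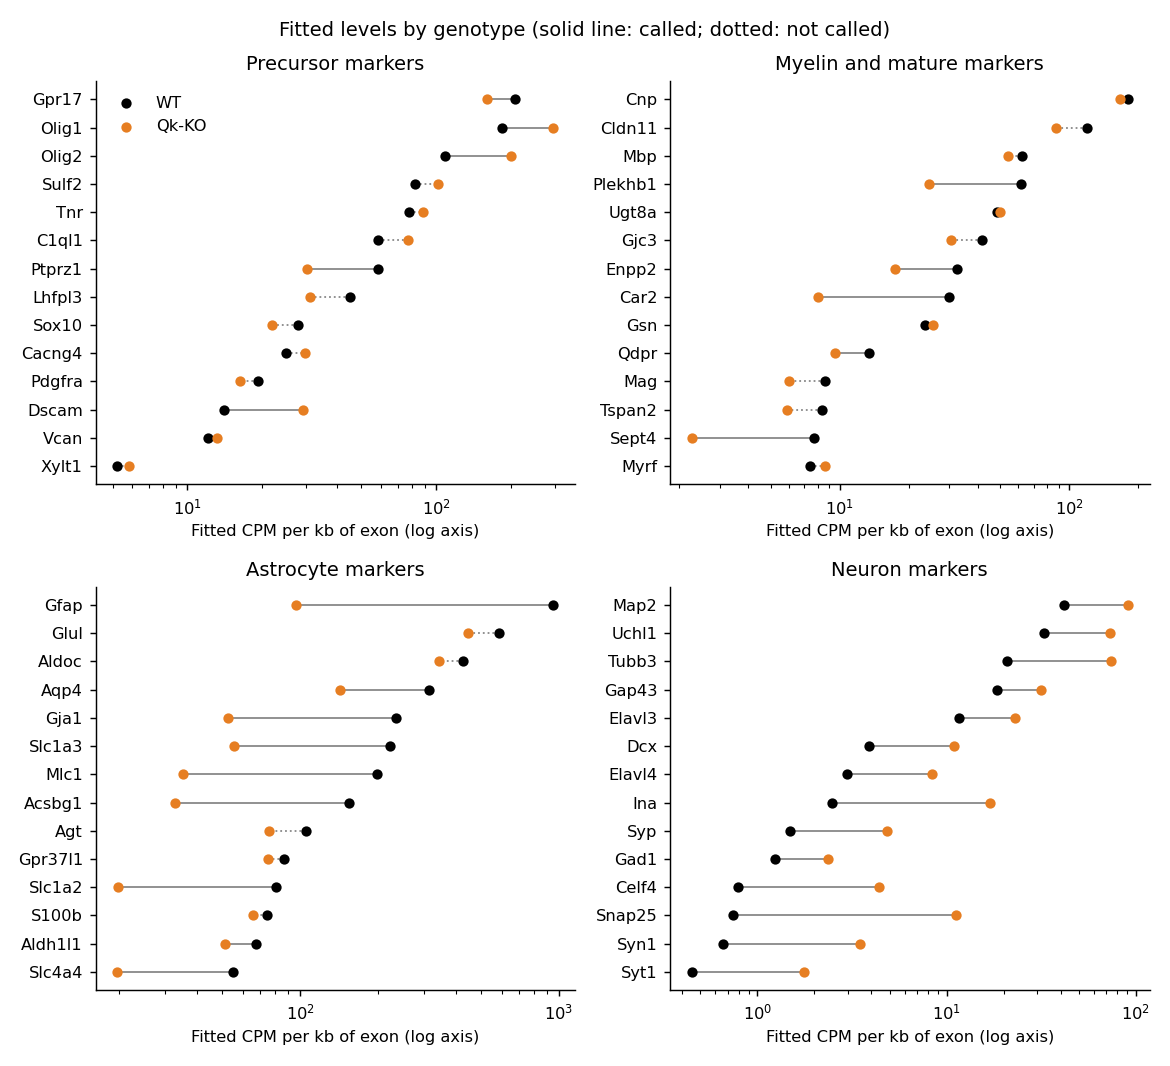
Fitted CPM per kb of exon (log axis) of up to 14 markers of 4 cell types, in WT (black) and in cultures labelled Qk-KO (orange). Solid lines join called genes and dotted lines uncalled ones. Among the astrocyte markers shown the called ones all lie lower in cultures labelled Qk-KO, and among the neuron markers they all lie higher.

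The change reached across the transcriptome. Of 17068 tested genes, 2328 rose and 2655 fell in cultures labelled Qk-KO, which is 13.6% and 15.6% of those tested. Scaling by total fitted counts adds 0.0772 to every log2 change and gave 3044 higher and 2284 lower. Leaving mitochondrial genes out of that total adds 0.1091 and gave 3395 and 2139, and fitted CPM, which are shares of the total, carry the first of these shifts. At least 2-fold changes were seen in 764 genes that rose (4.48%) and 1106 that fell (6.48%), and 30 and 38 passed 8-fold. Genes that fell took 24.7% of the fitted counts in WT and 13.4% in cultures labelled Qk-KO, and genes that rose 8.83% and 14.8%. The 4 most abundant RNAs in WT were not called. The mitochondrial ribosomal RNA mt-Rnr2 went from 173927 to 194867 fitted CPM without a call, and the small nuclear RNA Rn7sk from 20223 to 24991, which was called higher on total scaling. Malat1, a long nuclear RNA, fell from 8293 to 4381. Of the 12085 uncalled genes, 3321 had a 95% interval within 0.5 of 0, while 4061 had one that reached past 1, a 2-fold change. Of the 3414 tested genes with the lowest means 140 rose, against 596 of the 3414 with the highest, and the median SEs were 0.54 and 0.15.

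**Figure D2:**
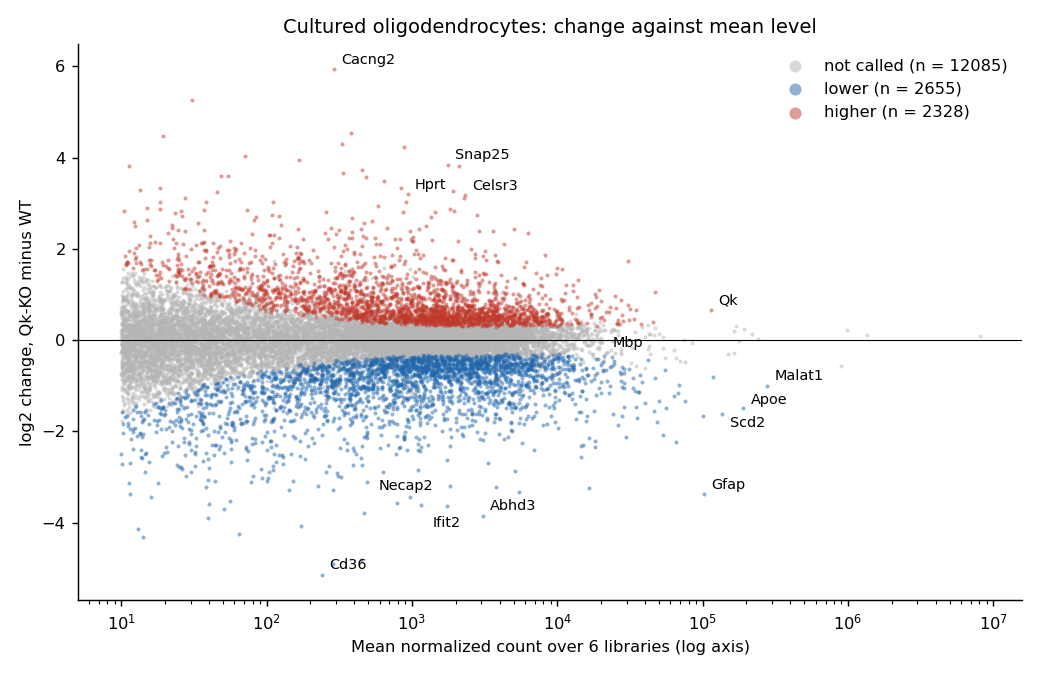
Log2 change (labelled Qk-KO minus WT) against the mean normalized count over 6 libraries (log axis), 1 point a gene. Red points (2328) were called higher and blue points (2655) lower; genes called in either direction are found at low and at high levels.

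These calls rest on 3 cultures a genotype and a normal reference for the deposited score. With a Student reference on 4 degrees of freedom no gene passed (0 called, smallest adjusted p 0.057), although 4170 tested genes kept an unadjusted p under 0.05.

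Among genes with at least 50 fitted CPM, the 12 largest falls took in several genes of metabolism, the interferon-induced Ifit2 and 2 astrocyte markers, Gfap and Mlc1. Abhd3, a phospholipase, had 125 fitted CPM in WT and 9.20 in cultures labelled Qk-KO, -3.85 ± 0.21 (SE) on the log2 scale of the authors' deposited table. Sfxn5, a mitochondrial sideroflexin, fell from 658 to 73.6, Slc25a18, a mitochondrial glutamate carrier, from 149 to 16.8, and the zinc transporter gene Slc39a12 from 218 to 22.8 fitted CPM. Gatm, the first enzyme of creatine synthesis, fell from 255 to 50.5, and Mlc1, an astrocyte membrane protein, from 553 to 98.9. Necap2, an endocytic adaptor, Hrsp12, the tubulin gene Tuba4a and Nbl1, a secreted BMP antagonist, completed the 12 with Gfap and Ifit2.

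The 12 largest rises at that level included Snap25 and Ina, of the neuron marker list, and other genes of synapses and axons. Snap25, a vesicle fusion protein, rose from 5.02 to 75.9 fitted CPM, and its partner in vesicle fusion, Napb, from 7.88 to 80.1. Celsr3, an adhesion receptor of axon pathways, rose from 10.2 to 97.7, a change of 3.18 ± 0.16 (SE) in the authors' deposited table. Chrnb2, a subunit of the neuronal nicotinic receptor, rose from 10.5 to 95.3, and the granin Chgb from 34.7 to 198. Iqsec3, Gdap1, Cdkn1c, Shtn1, Parp6, Ina and Plcb4 were the others, and 3 of the 24 had an SE above 0.3 in the authors' deposited table, Iqsec3 (3.82 ± 0.56), Cdkn1c (2.83 ± 0.50) and Shtn1 (2.82 ± 0.31).

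**Figure D3:**
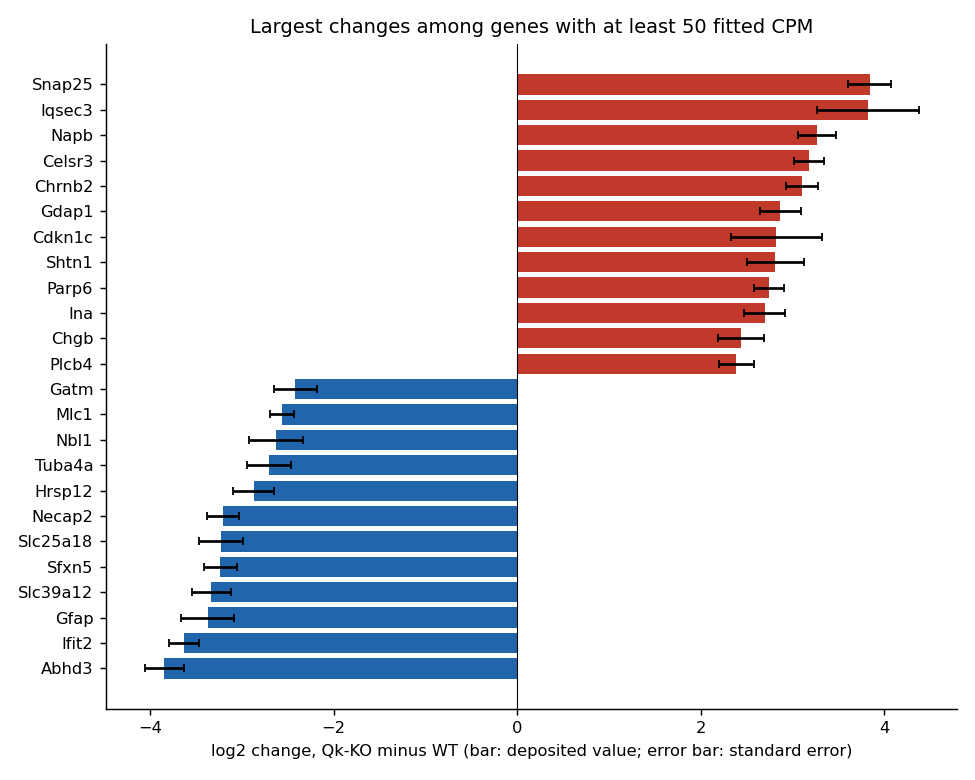
Deposited log2 change (bars) with its standard error (error bars) of the 12 called genes with the largest rise and the 12 with the largest fall among genes with at least 50 fitted CPM in either genotype. Abhd3 lies lowest and Snap25 highest, and no error bar reaches 0.

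Qk itself was higher, not lower, in the cultures labelled Qk-KO, going from 1972 to 3277 fitted CPM, a change of 0.66 ± 0.14 (SE; adjusted p = 4.19e-05) on the log2 scale of the authors' deposited table. Reads over the whole gene do not show whether a floxed part was lost, so this value checks neither the deletion nor the labels. The other STAR proteins, which bind related RNA motifs, were higher or not called: Khdrbs1 rose from 101 to 158 and Khdrbs3 from 48.2 to 69.5, while Khdrbs2 (26.7 to 42.3; called on total scaling without mitochondrial genes) and Sf1 (92.7 to 104) were not called.

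Many RNA-binding regulators of neuronal splicing rose. Of 25 tested, 14 rose and 1 fell (median log2 change 0.69, against 0.01 over all tested genes). Srrm3, which promotes inclusion of neuronal microexons, rose from 1.95 to 38.8 fitted CPM, a change of 4.24 ± 0.20 (SE) in the authors' deposited table. Its relative Srrm4 was low and uncalled at 0.707 to 1.09. In the CELF family, Celf3 (6.51 to 31.8), Celf4 (6.79 to 37.7), Celf5 (1.84 to 6.40) and Celf6 (0.694 to 4.82) rose, while Celf2 had 39.95 to 41.3 without a call. The Rbfox and Elav families rose in every member listed, among them Rbfox2, which went from 24.7 to 75.2, and Elavl4, which went from 16.1 to 45.02. Msi1, a stem cell RNA-binding protein, was the 1 that fell (59.2 to 33.2). The genes of the polypyrimidine tract proteins, Ptbp1 (65.7 to 77.8) and Ptbp2 (189 to 197) were not called. General splicing factors moved less: of 27 SR proteins and hnRNPs 10 rose, led by Hnrnph1 (166 to 327) and Srsf3 (85.3 to 136), and 1, Hnrnpf, fell (106 to 84.4; not called on total scaling without mitochondrial genes), with a median of 0.38. On total scaling 16 of them rose.

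Transcription factors of the oligodendrocyte lineage rose or were not called, and none fell. Of 17 tested, 8 rose (median 0.59). Olig2, the factor that specifies the lineage, rose from 274 to 508 fitted CPM, Olig1 from 397 to 641, Sox8 from 509.9 to 910.5 and Myt1 from 122 to 244. Nkx2-2, a factor of early differentiation, rose from 14.8 to 43.02. Sox10, which drives myelin genes, had 84.7 to 66.8 and Myrf, the factor that switches on myelin genes in maturing cells, 63.2 to 74.02, both uncalled. The myelin list went mostly the other way, with 8 of 26 lower and 3 higher (median -0.54). Mal, a raft protein of compact myelin, fell from 6.84 to 1.18 and Car2, a carbonic anhydrase, from 72.5 to 19.5, while Mog rose from 12.2 to 31.3 (not called when centred on the median), Opalin from 4.46 to 13.3 and Fa2h, which makes hydroxylated myelin lipids, from 20.98 to 36.7. Mbp (525 to 457) and Cnp (654 to 605) were uncalled. Of 18 precursor markers 4 rose (22.2%), 3 fell (16.7%, near the 15.6% of all genes) and 11 were not called. Olig1, Olig2, Megf11 (25.8 to 53.7) and Dscam (123 to 258) rose, Ptprz1 (829 to 430.4), Cspg4 (58.3 to 38.8) and Gpr17 (1077 to 834; not called on total scaling without mitochondrial genes) fell, and Pdgfra, the receptor that keeps precursors dividing, had 193 to 163 without a call.

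Neuronal transcription factors rose in most cases. Of 28 tested, 17 rose and 1 fell (median 0.99). Scrt1, a repressor found in newly born neurons, rose from 2.27 to 27.003 fitted CPM and Insm1, which acts in newly formed neurons and endocrine cells, from 2.81 to 13.9. The interneuron factors Dlx1 (6.50 to 19.7), Dlx2 (3.70 to 8.11), Dlx5 (0.439 to 1.31) and Dlx6 (0.272 to 0.769) rose together, as did Bcl11b (3.68 to 14.7). The 1 that fell was Rest, the repressor that keeps neuronal genes off outside neurons, at 39.3 to 28.8 and -0.52 ± 0.13 (SE; adjusted p = 0.000287) in the authors' deposited table. Rcor2, of the CoREST family of corepressors, rose from 32.2 to 46.2. The POU factor Pou3f2 (87.1 to 96.4) was not called. Of 26 subunit genes of the BAF chromatin remodelling complex 10 rose and none fell. Actl6b, the subunit of postmitotic neurons, rose from 0.683 to 16.9, and Dpf1 from 14.4 to 28.2, while the ATPase gene Smarca4 had 284 to 328 and Actl6a, the progenitor counterpart of Actl6b, 23.8 to 29.8, both uncalled (Actl6a was called on total scaling without mitochondrial genes).

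The letters of the site bound by Rest were searched in RefSeq promoter windows (GRCm38.p6, 250 bases before to 50 after the start), which were at hand for 11111 of the genes. The core, CAGCACC and GGACAG with 2 free bases between them, on either strand, stood in 7 genes (0.063%), of which 3 rose (0.178% of the 1681 risers with a window), 1 fell and 3 were not called. Ahead of the start the match lay in 2 of the risers, Fbll1 and Sptbn4. It also lay there in Ogdhl (log2 change -0.63), which fell, and in the uncalled Lca5 (0.23), Hrh3 (0.16) and Osbp2 (0.09). As examples, only the stretches of the 2 risers are shown. The core is in capitals, read here as the reverse complement of the letters above. Both genes lie on the minus strand, at chr11:35799028-35799102 and chr7:27396252-27396326.
Fbll1: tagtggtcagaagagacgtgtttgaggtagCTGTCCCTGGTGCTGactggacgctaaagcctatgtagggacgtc
Sptbn4: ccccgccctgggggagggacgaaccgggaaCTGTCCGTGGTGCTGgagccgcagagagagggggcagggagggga

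Fbll1, a relative of the nucleolar methyltransferase fibrillarin, rose from 3.14 to 11.9 fitted CPM and Sptbn4, a spectrin of the axon initial segment, from 1.91 to 5.69. In the third riser, Ttc9b (3.49 to 17.9), the match lies past the start site. The shorter left part TTCAGCACC was in 0.952% of risers, 0.408% of genes that fell and 0.513% of all, and the right part, GGACAG followed by CGCC, in 0.595%, 0.255% and 0.288%. These parts overlap the core, and a match is a description of letters, not of binding.

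Genes of the synapse rose broadly. Of 34 tested genes of vesicle release 22 rose and 4 fell (median 0.72). The membrane fusion genes Snap25 and Stx1a (3.31 to 21.2 fitted CPM) rose, as did the priming factor Unc13a (16.7 to 79.2), the active zone scaffold Bsn (10.995 to 53.02), the synapsin Syn1 (2.18 to 11.5) and the calcium sensor Syt1 (3.75 to 14.7). Those that fell were Sv2b (1.43 to 0.380), Sypl (16.02 to 8.61), Syt11 (587 to 396) and Cplx2 (43.4 to 32.8). Syt11 had the highest level of the list per kb in WT (113), and the summed level of the list went from 1119 to 1502. Granins and their processing enzymes gave 7 rises and 2 falls in 14. Chga (8.21 to 49.1), Chgb and the dense-core vesicle protein Ptprn (4.37 to 37.4) rose, while Cpe, the carboxypeptidase that is also made by glia, fell from 2070 to 983.

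Voltage-gated channels rose in 18 of 35 cases and fell in 3. The calcium channel genes of presynaptic terminals, Cacna1a (19.4 to 68.9 fitted CPM) and Cacna1b (4.64 to 26.7), rose. The falls were those of Kcnq3 (6.94 to 3.95), a subunit of the M current, and of the glial potassium channel genes Kcnj10 (230.3 to 127) and Kcnj16 (73.2 to 25.2). Receptor genes of glutamate and GABA showed 13 rises and 4 falls in 39. Cacng2, the AMPA receptor partner stargazin, rose from 0.196 to 12.7, Grin1, the obligatory NMDA receptor subunit, from 2.97 to 18.4, and Gabbr2, a subunit of the GABA-B receptor, from 84.3 to 248. The AMPA subunits differed, with Gria1 lower (182 to 67.02) and Gria4 higher (28.4 to 55.98). Axon guidance genes gave 21 rises and 7 falls in 58. Slit1, a repellent ligand, rose from 1.06 to 14.1 and Ephb2 from 31.4 to 78.6, while the semaphorin receptor Plxnd1 fell from 80.4 to 19.9 and Slit2 from 5.30 to 2.53. Neuron markers moved with these groups (15 of 19 rose, none fell), and their part in them was not tested. Map2 rose from 686 to 1491 and Tubb3 from 39.2 to 138, but Stmn2 (0.568 to 0.337), Gad2 (2.36 to 2.60) and the neurofilament genes Nefl (0.305 to 0.512) and Nefm (0.472 to 0.863) were not called.

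**Figure D4:**
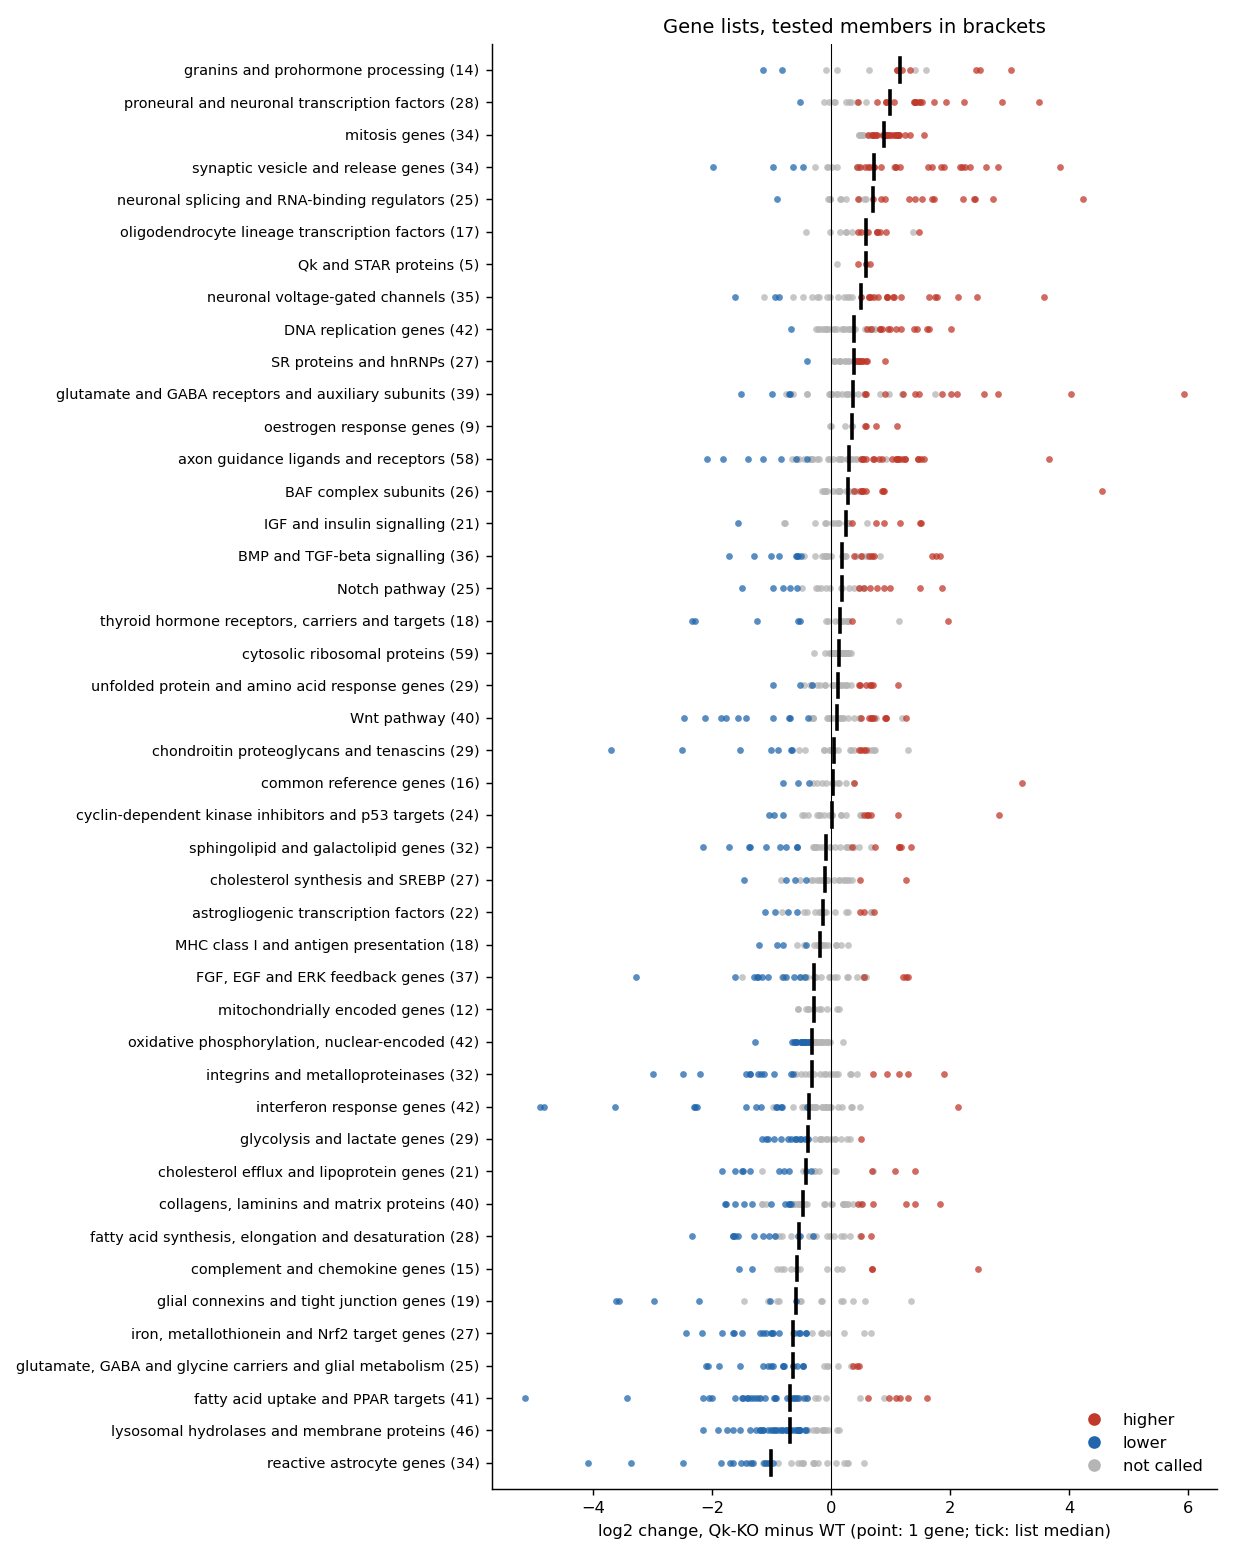
Log2 change (labelled Qk-KO minus WT) of every tested member of 44 gene lists, with the list median as a black tick and the number of tested members in brackets. Red points were called higher and blue points lower. The lists of mitosis and of neuronal functions lie to the right, and those of reactive astrocytes, lysosomes and fatty acid uptake to the left.

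Most mitosis genes rose. All 34 mitosis genes had a positive change and 25 of them were called, none lower (median 0.88). Mki67, present in all dividing cells, rose from 21.1 to 52.5 fitted CPM, Top2a from 10.7 to 21.9, Ccna2 from 4.61 to 10.2 and Ube2c, which drives exit from mitosis, from 1.87 to 5.82. Their levels were modest, with a sum of 122 in WT and 244 in cultures labelled Qk-KO. DNA replication genes rose in 14 of 42 cases, and 21 on total scaling. Among the helicase subunits Mcm2 (9.66 to 18.1), Mcm5 (4.68 to 14.98) and Mcm6 (12.4 to 23.6) rose, while Mcm3 (7.15 to 8.85), Mcm4 (21.8 to 23.8) and Mcm7 (24.98 to 32.6; called on total scaling) were not called. The same held for the clamp gene Pcna (54.1 to 53.6). E2f2 (0.516 to 2.19) and E2f7 (0.457 to 1.51) rose and E2f8 fell (6.63 to 4.36; not called on total scaling). Of 24 inhibitors of the cycle and p53 targets 6 rose (25%) and 3 fell (12.5%), against 13.6% and 15.6% of all genes. Cdkn1c rose from 9.80 to 73.4, Cdkn2a from 6.08 to 10.2 and Cdkn2d from 9.32 to 14.9, while Cdkn2b fell from 33.04 to 16.9 and Cdkn2c from 32.5 to 19.6, and Cdkn1a (43.5 to 35.03) was uncalled.

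Mcm5 and Mcm6, which rose, hold the E2F site TTTGGCGC (either strand) ahead of the start in their RefSeq windows. These are shown with the site in capitals, as written for Mcm6 and as its reverse complement for Mcm5, at chr8:75109330-75109397 on the plus strand and chr1:128359778-128359845 on the minus strand.
Mcm5: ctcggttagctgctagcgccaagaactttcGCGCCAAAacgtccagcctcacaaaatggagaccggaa
Mcm6: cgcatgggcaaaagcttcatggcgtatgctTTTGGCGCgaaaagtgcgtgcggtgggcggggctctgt

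These letters were in 6 of 33 DNA replication genes with a window, 4 of which rose, and in none of 29 mitosis genes. Over all genes the share was 1.07%, among risers 0.952% and among genes that fell 1.07%. Mcm3 is 1 of the 2 uncalled genes that hold them. A second form, TTTCGCGC, was in 7 of the 33 replication genes, 5 of which rose, and in 1 mitosis gene, Cdk1, which was not called. It was in 1.07% of risers, 0.459% of genes that fell and 0.702% of all, and in both windows shown it overlaps the capitals.

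Many astrocyte genes fell. Of 22 tested markers 14 fell and none rose (median -1.23; 1 rose on total scaling). The falls were unequal. Gfap fell from 4008 to 408 fitted CPM, and Gjb6, a gap junction subunit, from 27.3 to 2.43, whereas Aqp4, the water channel of astrocyte endfeet, fell from 1962 to 889. Aldoc (1392 to 1124; lower when centred on the median), Glul (1954 to 1482), S100b (110.4 to 97.9) and Sox9 (162 to 128) were not called. Glutamate uptake carriers Slc1a2 (1063 to 259) and Slc1a3 (1897 to 474) and the glycine carrier Slc6a9 (86.7 to 24.7) fell, as did Gldc of the glycine cleavage system (99.7 to 47.2), while the neuronal glutamate carrier Slc1a1 (170.4 to 232; not called when centred) rose. In the list for these carriers and enzymes 15 of 25 fell and 3 rose. The first steps of serine synthesis parted, with Phgdh lower (167 to 89.1) and Psat1 higher (247 to 361).

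Genes of the reactive state, a list that shares Gfap with the markers, fell in 14 of 34 cases, with none higher (median -1.01). Tgm1, a transglutaminase, fell from 6.80 to 0.424 fitted CPM and Osmr, a cytokine receptor subunit, from 39.001 to 11.4. Stat3, the factor downstream of this receptor family, was uncalled at 201 to 186, and Vim at 835 to 622. Of 22 factors of astrocyte formation 4 fell (18.2%) and 3 rose (13.6%), shares near those of all genes (15.6% and 13.6%). Lhx2 (33.6 to 16.3), Rorb (112 to 60.9), Dbx2 (34.9 to 22.2) and Id2 (203 to 143; not called on total scaling without mitochondrial genes) fell, Nfib (131 to 193), Hes1 (5.05 to 7.77) and Id1 (20.97 to 36.5) rose, and Nfia (169 to 129.7) was not called. Ependymal markers fell in 4 of 7 cases, Foxj1 (82.8 to 39.3) among them, and Tmem212, another of the 11 listed, was at 0.

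Pathways known to steer glial fate had members that rose and members that fell. Of 25 Notch pathway genes 8 rose (32%) and 5 fell (20%). Of 36 genes of BMP and TGF-beta signalling 8 rose and 8 fell (22.2% each). Over all tested genes 13.6% rose and 15.6% fell, and in the fifth with the highest means 17.5% and 23.4%, so several shares here lie near these. In the Notch pathway the receptors Notch2 (91.4 to 54.8 fitted CPM) and Notch3 (21.7 to 11.6) fell and Notch1 had 129 to 152 without a call. The ligands Dll1 (29.9 to 62.5) and Jag2 (0.797 to 3.04) rose, as did the targets Hes5 (4.60 to 13.6) and Hes1, while the targets Hey1 (112 to 79.1) and Hey2 (6.22 to 2.32) fell. In BMP signalling the ligand Bmp4 (19.1 to 67.99) and the antagonists Nog (1.89 to 6.44) and Fst (0.233 to 0.868) rose and Tgfb2 fell (59.7 to 34.2), and the receptor gene Bmpr1a (253 to 238) was not called. Wnt genes gave 9 rises (22.5%) and 10 falls (25%) in 40. Ctnnb1, the beta-catenin gene, fell from 749 to 490.4 and Wnt7b from 43.3 to 10.5, while Wnt7a rose from 32.5 to 56.4 and Nkd1, a feedback inhibitor, from 24.4 to 61.5. Of 37 genes of FGF, EGF and ERK feedback 12 fell (32.4%) and 4 rose (10.8%). Fgf1 (54.5 to 18.6), Nrg1 (5.50 to 0.596) and the receptor Fgfr3 (94.3 to 42.2) fell, and the feedback genes Spry1 (11.5 to 28.04) and Spry4 (3.77 to 9.45) and the ERK-responsive factor Etv1 (58.1 to 149.7) rose.

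Both IGF-1 and T3 were in the medium of every culture, and the receptor genes of both were detected. Of 21 genes of IGF and insulin signalling 6 rose (28.6%) and 1 fell (4.76%). Of 18 thyroid hormone genes 2 rose (11.1%) and 5 fell (27.8%). Over all genes 13.6% rose and 15.6% fell. The IGF-1 receptor gene Igf1r had 23.4 to 26.6 fitted CPM and was not called, and Insr rose from 50.1 to 67.3. Akt1 (138 to 173; called higher on total scaling) and Akt2 (135 to 118) were uncalled. The adaptor gene Grb10, which damps receptor signalling, rose from 4.18 to 12.6 and the binding protein gene Igfbp3 from 31.5 to 93.1, and Igfbp7 fell from 7.24 to 2.56. On the thyroid hormone side the activating deiodinase Dio2 (43.9 to 9.45) and the receptor Thrb (23.2 to 16.97) fell, and Thra, the more abundant receptor per kb (65.02 against 3.13 fitted CPM per kb in WT), had 300.02 to 377 without a call. Of the target genes Thrsp fell from 30.6 to 6.38, and Klf9 (151 to 167) was not called.

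Interferon response genes fell in 14 of 42 cases, and 1 rose (median -0.37). The largest falls included the Ifit genes, which encode RNA-binding antiviral proteins and lie side by side on chromosome 19 (GRCm38, plus strand). Ifit2 (chr19:34550694-34576419) fell from 71.7 to 6.11 fitted CPM, Ifit3 (chr19:34583531-34588731) from 11.9 to 0.422, Ifit3b (chr19:34607970-34613401) from 18.5 to 0.688 and Ifit1 (chr19:34640871-34650009) from 1.03 to 0.222. Ifit3 and Ifit3b are close copies, so reads may have been split between them. The GTPases Gbp2 (28.7 to 11.2), Gbp3 (28.8 to 12.7) and Irgm1 (23.6 to 11.01) and the antiviral Rsad2 (2.94 to 0.649) also fell. The machinery above them gave no call in the receptor genes Ifnar1 (69.2 to 71.04) and Ifnar2 (17.8 to 23.7; called higher on total scaling) or in Stat2 (17.9 to 18.5), Irf9 (14.6 to 14.5) and Irf7 (0.741 to 0.654). Mx1 rose from 0.144 to 0.664, at a low level. Of 18 genes of MHC class I and antigen presentation 4 fell (22.2%) and none rose. Of 15 complement and chemokine genes 2 fell (13.3%) and 3 rose (20%). Over all genes 15.6% fell and 13.6% rose, so these falls lie near the share of all genes. B2m, the light chain of MHC class I, fell from 192 to 115, with its activator Nlrc5 (4.58 to 2.58), while H2-D1 (50.6 to 45.9) was not called.

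The interferon-stimulated response element, searched as 2 copies of GAAA with 2 free bases between them on either strand, was found in 15 of the 33 interferon genes with a window, of which 9 fell and 6 were not called, against 3.47% of all genes. The windows of 6 that fell are shown, with the first match of each in capitals, because the same letters recur at different distances from the start. In all 6 the capitals are the reverse complement of the motif, TTTC, 2 bases and TTTC again. They lie at chr19:34583343-34583412, chr19:34607739-34607808, chr19:34640755-34640824, chr12:26456533-26456602, chr3:142620574-142620643 and chr3:142559969-142560038 in that order, on the plus strand except for Rsad2.
Ifit3: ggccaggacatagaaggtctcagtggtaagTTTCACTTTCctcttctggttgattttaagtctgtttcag
Ifit3b: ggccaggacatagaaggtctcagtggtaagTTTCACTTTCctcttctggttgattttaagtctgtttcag
Ifit1: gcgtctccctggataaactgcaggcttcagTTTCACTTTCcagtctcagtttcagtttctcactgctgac
Rsad2: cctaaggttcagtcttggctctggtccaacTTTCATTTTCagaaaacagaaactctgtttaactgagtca
Gbp2: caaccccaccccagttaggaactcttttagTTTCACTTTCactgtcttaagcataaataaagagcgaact
Gbp3: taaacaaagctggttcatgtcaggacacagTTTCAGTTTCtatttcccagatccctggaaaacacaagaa

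The 70 bases of Ifit3 and Ifit3b are the same, letter for letter. The first match begins 156 bases before the start of Ifit3, 104 before that of Ifit1 and 45 before that of Gbp3. The uncalled genes that hold the letters include Stat2. Over all genes, 3.57% of risers and 3.67% of genes that fell held it. The longer form, which ends in CT, was in 15 of 1961 genes that fell (0.765%), 3 of 1681 risers (0.178%) and 0.342% of all.

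Genes of fatty acid uptake and the PPAR targets mostly fell. Of 41 tested genes 26 fell and 6 rose (median -0.69). The uptake gene Cd36 fell from 10.1 to 0.301 fitted CPM, Cpt1a, which commits fatty acids to mitochondrial oxidation, from 158 to 59.4, and the dehydrogenases Acadl and Acadm from 141 to 35.9 and from 113 to 51.5. The receptor genes Ppara (5.51 to 2.20) and Ppard (18.2 to 13.9; not called on total scaling without mitochondrial genes) fell and Pparg (1.02 to 1.51) was not called. The 6 risers were the binding protein genes Fabp7 (375 to 771) and Fabp3 (2.21 to 5.66), the activating and uptake genes Acsl5 (17.8 to 41.996), Slc27a3 (4.21 to 9.48) and Slc27a4 (81.4 to 132), and the lipid droplet gene Cidea (3.22 to 10.3). In fatty acid synthesis 12 of 28 fell. The desaturase Scd2, the highest of that list per kb in WT (841), fell from 4597 to 1574, Scd1 from 540.2 to 181, the elongase Elovl5 from 469.6 to 167 and the regulator Srebf1 from 175 to 75.1. The synthase itself, Fasn (444 to 360.3), was not called (lower when centred on the median), and the elongase Elovl6 rose from 82.7 to 138.

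Of 27 cholesterol synthesis genes 4 fell, 14.8% and so near the 15.6% of all genes, and 2 rose (median -0.11). Hmgcs1, an early enzyme of the pathway, fell from 936 to 359 fitted CPM. Among efflux and lipoprotein genes 10 of 21 fell (47.6%) and 3 rose (median -0.42), and the difference between these lists was not tested. Apoe, the main lipid carrier of the brain, fell from 6256 to 2349 and the exporter Abca1 from 294 to 86.2, while the exporter Abcg1 rose from 4.16 to 11.6. Of 32 sphingolipid genes 9 fell (28.1%) and 6 rose (18.8%), against 15.6% and 13.6% of all genes. The breakdown genes Galc (32.2 to 7.60), Asah1 (116 to 46.8) and Sgpl1 (175 to 71.4) and the desaturase Degs1 (134 to 43.3) fell, and Smpd3, which breaks down sphingomyelin (15.2 to 36.1), and the genes that build gangliosides, Ugcg (15.6 to 35.97), St8sia1 (14.2 to 33.1) and B4galnt1 (13.5 to 36.1), rose. Ugt8a, which makes galactosylceramide for myelin, had 219 to 226 without a call.

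Lysosomal genes fell in 34 of 46 cases, 73.9% against the 15.6% of all genes, and none rose (median -0.69). The membrane protein gene Lamp1 fell from 946 to 316 fitted CPM, the proteases Ctsb from 576 to 263 and Ctsd from 695 to 330.3, and the cholesterol transporter of lysosomes, Npc1, from 158 to 64.1. The regulators Tfeb (25.6 to 26.1) and Tfe3 (32.1 to 31.3) were not called, and Mitf fell from 27.6 to 19.2. The site that these factors bind, TCACGTGA, was in 5 of the 38 lysosomal genes with a window, 4 of which fell, and in 2.00% of all genes. Microglia, which are rich in lysosomes, gave no more than 3 markers above the filter, P2ry12 (2.17 to 0.502) and Cd68 (2.72 to 2.42) among them.

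Iron and oxidative stress genes fell in 18 of 27 cases with none higher (median -0.65). Metallothionein Mt1 fell from 3414 to 1139 fitted CPM and Mt3 from 1116 to 532, the ferritin genes Fth1 from 2048 to 1098 and Ftl1 from 790.4 to 451. Nfe2l2, the regulator of antioxidant genes known as Nrf2, fell from 126 to 42.8 with its targets Srxn1 (156 to 36.5), Gclm (145 to 54.3) and Hmox1 (152 to 80.4). Glycolysis genes fell in 13 of 29 cases, such as Ldhb (615 to 289) and the glucose transporter Slc2a1 (54.5 to 29.3), while Ldha (79.4 to 87.1) and Pkm (949.6 to 1199; higher on total scaling without mitochondrial genes) were uncalled and the neuronal enolase Eno2 rose (12.1 to 18.003). Of 42 nuclear genes of oxidative phosphorylation 19 fell, all but 1 less than 2-fold, with 12 on total scaling. None of the 12 tested mitochondrially encoded genes was called. Ribosomal protein genes gave 0 calls in 59 (median 0.13), and 7 rises on total scaling. Astrocyte markers moved in the same direction as the lipid, lysosomal and iron groups (17833 to 6620 in sum), and their part in these results was not tested.

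Of 40 matrix genes 10 fell (25%) and 6 rose (15%). Over all tested genes 15.6% fell and 13.6% rose, and in the fifth with the highest means 23.4% and 17.5%. Sparcl1, a secreted glial protein, fell from 2348 to 977 fitted CPM. The basement membrane collagens parted, with Col4a5 (68.5 to 20.8) and Col4a6 (22.8 to 7.03) lower and Col4a1 (22.2 to 33.6) and Col4a2 (8.68 to 12.6) higher. In each pair the genes lie head to head on 1 chromosome. Col4a2 was not called when centred on the median. Integrins and metalloproteinases gave 12 falls (37.5%) and 5 rises (15.6%) in 32. Integrin subunit Itgb8 fell from 661 to 152 and Itga8 from 12.7 to 1.67, Itga9 rose from 9.48 to 24.4, and Itgb1, the common partner, had 303 to 324 without a call. Chondroitin proteoglycans and tenascins gave 7 and 4 in 29. The proteoglycan gene Bcan fell from 632 to 359.7 and Hapln1, a link protein, from 1.91 to 0.154, while Ncan (829 to 1106), Vcan (175 to 190.1) and the tenascin gene Tnr (1002 to 1137) were not called.

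Since the tags 40HT and EtOH split the cultures as the genotype does, genes of the oestrogen response are given as well. Of 14 listed, Tff1 and Tff3 were at 0 and Esr2, Pgr and Gata3 were below the filter. Of the 9 tested, 4 rose (44.4%, against 13.6% of all genes) and none fell (median 0.35). The risers were Xbp1, Greb1 (1.37 to 3.10 fitted CPM), Igfbp4 (4.17 to 7.43) and Ccnd1 (21.7 to 33.7), and the receptor gene Esr1 was at 0.443 to 0.462, uncalled. The part of the treatment in these and the other changes was not tested. Over all genes 13.6% rose and 15.6% fell. Unfolded protein and amino acid response genes gave 7 rises (24.1%) and 3 falls (10.3%) in 29. Glial connexins and tight junction genes gave 6 falls (31.6%) and no rise in 19. Neural stem cell markers gave 5 rises (27.8%) and 3 falls (16.7%) in 18. Endothelial and mural markers, with 8 of 15 above the filter, gave 3 falls (37.5% of the 8), and fibroblast markers (6 of 12) no call. Of 16 common reference genes, 2 rose (12.5%) and 3 fell (18.8%), shares near those of all genes. Hprt rose from 4.06 to 39.4 fitted CPM, a change of 3.20 ± 0.17 (SE) in the authors' deposited table, and Ywhaz also rose (309 to 424). B2m and Sdha (262 to 213; uncalled on total scaling without mitochondrial genes) were among those that fell. Actb (4673 to 5403), Gapdh (457 to 435), Eef1a1 (3899 to 4891; higher on total scaling) and Tbp (29.7 to 40.8) were not called.

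The same contrast in corpus callosum gave far fewer calls. There, 4 mice with Plp-CreERT2 and 2 floxed Qk alleles were compared with 4 that carried the Cre and 1 floxed allele, after tamoxifen at 8 weeks of age and 4 days of waiting. Of 19211 tested genes with a mean of at least 10, 415 rose (2.16%) and 45 fell (0.234%). Over the 16601 genes tested in both tables, a z test of the difference of the deposited log2 changes called 1633 above (9.84%) and 1944 below (11.7%) in culture. Of genes called in both, 39 rose in both, 18 fell in both, 84 fell in culture and rose in callosum, and none (0) did the reverse. Of the 16601 genes, 4880 were called in culture and 330 in callosum. The 141 called in both were 2.89% of the culture calls and 42.7% of the callosum calls. In culture 29.2% of all tested genes were called in either direction. Few genes fell in callosum, which left little room for a fall there with a rise in culture.

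For groups that changed most in culture, counts by that test are given here, against 9.84% above and 11.7% below over all genes. The test uses the same culture changes by which these groups stand out, so high counts are not a separate result. In the lysosomal list 36 of 46 lay below callosum, in the astrocyte list 14 of 22, and in the synaptic list 19 of 34 lay above. The 84 that fell in culture and rose in callosum include 11 genes of the lysosomal list, among them Ctsa, Ctsb, Ctsc, Ctsd, Ctsh, Ctsz, Hexa, Man2b1 (not called in culture on total scaling), Cd63 and Grn. Gfap had 2.06 ± 0.19 (SE) in the callosum values of the authors' deposited table. Apoe fell in culture and had 0.74 ± 0.15 (SE; adjusted p = 6.12e-05) in the callosum values of the authors' deposited table. C4b, a complement gene, fell in culture (105 to 37.7 fitted CPM) and had 1.71 ± 0.23 (SE; adjusted p = 9.16e-11) there. The genes that moved alike include Mog (callosum 1.12 ± 0.15, SE), Opalin (1.16 ± 0.16), Fa2h (0.59 ± 0.16) and Sox8 (0.83 ± 0.18), which rose in both, and Scd1 (-0.48 ± 0.13), Scd2 (-0.38 ± 0.09) and Degs1 (-0.38 ± 0.09), which fell in both, per the authors' deposited table. Mog, Opalin and Fa2h do not stand for the myelin list, in which 3 of 26 rose and 8 fell in culture. In callosum 9 of these 26 rose and 0 fell. By the test of the difference 11 of the 26 lay below callosum and 0 above. The fall of both desaturase genes was larger in culture by the test of the difference (adjusted p = 2.66e-08 for Scd1 and 4.59e-14 for Scd2), while for Mog the difference was not called (adjusted p = 0.884). For Qk the difference was not called, with culture minus callosum at 0.33 ± 0.18 (SE; adjusted p = 0.205). The callosum is a whole tissue and the culture a differentiated line of cells, so the age, the cell mixture, the time since recombination and the treatment differ between them together with the system.

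**Figure D5:**
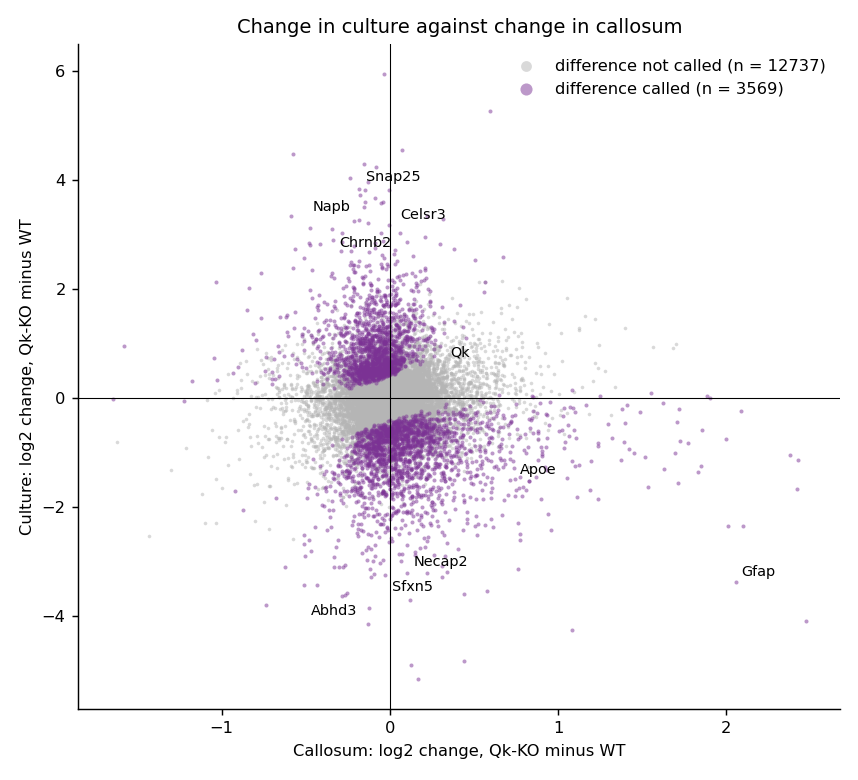
Log2 change (labelled Qk-KO minus WT) in culture against that in callosum for the genes tested in both that have a culture mean of at least 10; purple points (3569 of 16306) had a called difference. Gfap lies above 0 in callosum and low in culture, and the purple points spread further along the culture axis than along the callosum axis.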

How the data were processed

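RNA sequencing of 6 cultures and 8 callosum samples was deposited as 2 tables, 1 per system, and all values come from them. Per the submitters' processing notes the tools were DESeq2, featureCounts, TopHat2 2.0.14 and FastQC and the build mm10. Annotation, strand and other settings: not given in the sources used here. Each library column was deposited by the authors as log2 of a DESeq2 fitted mean plus 1, as read from the values: the libraries of a genotype differ by 1 factor at every gene (tolerance 1e-08). Per the file headers, the authors' mean normalized count is a signal over all libraries. The score deposited beside it is the log2 fold change over its SE, and the authors' p-values are Wald p-values with a Benjamini-Hochberg adjusted p. As deposited, the change is WT over Qk-KO and was turned around here.

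Genes with a mean of at least 10 were kept (17087), of which 19 had no p and 17068 were tested, and called at an adjusted p under 0.05. Fitted means were turned into CPM, and into CPM per kb with exon lengths of GENCODE vM21 (GRCm38). Culture and callosum changes were compared with a z test on both deposited changes and SEs, Benjamini-Hochberg adjusted over 16601 genes. The scripts were tested on simulated data, and ran in python 3.11.15 with numpy 2.4.6, pandas 2.3.3, scipy 1.17.1 and matplotlib 3.10.9.

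Genes were named by a rule: Qk; the 12 called genes with the highest and the 12 with the lowest change at 50 or more fitted CPM; the 10 most abundant in WT; up to 4 called members per direction and 2 uncalled members of each of 54 lists; the 3 most abundant of each of 9 marker lists; and the 5 per direction with the largest difference from callosum. The members and lists were chosen with earlier results of these data known. The 5 lists of the closing observations, the 14 promoter motifs, the printed windows and further genes named for their role were chosen after the values were seen. Some genes that the rule names are not reported here. RefSeq promoter windows (GRCm38.p6) matched 11111 of 17081 symbols, and bases after the start site are not printed. Alternatives were another reference distribution, adjustment, mean, fold, threshold and scaling.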

Additional observations from a re-analysis of the deposited data

Results flagged for a closer look

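Culture and callosum differed for 243 of the 396 genes that the naming rule chose and that both tables test (z test of the deposited changes, Benjamini-Hochberg adjusted p under 0.05). Over all genes tested in both, 3577 of 16601 differed. The rule chose many genes by their change in culture or by this difference, so a higher share among them was built in. The 5 per direction with the largest z are given here as culture minus callosum on the log2 scale, with SE, and they were chosen for that size. Culture lay below callosum for Gfap (-5.43 ± 0.34), Abhd3 (-3.72 ± 0.24), Necap2 (-3.31 ± 0.20), Sfxn5 (-3.21 ± 0.20) and Mlc1 (-2.77 ± 0.19). It lay above for Snap25 (4.02 ± 0.29), Napb (3.45 ± 0.24), Chrnb2 (3.45 ± 0.26), Celsr3 (3.18 ± 0.21) and Parp6 (2.83 ± 0.20). For Gfap the callosum value in the authors' deposited table was 2.06 ± 0.19 and the culture value -3.37 ± 0.29. For Snap25 these were -0.18 ± 0.17 and 3.84 ± 0.23 in the authors' deposited table.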

How the results depend on the processing

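The count of calls was within 1.5 times the main 4983 (2328 higher, 2655 lower) when p-values were adjusted over all genes with a p (2021 higher, 2421 lower), at a minimum mean of 50 (2150 and 2435), when centred on the median (2213 and 2734) and on both total scalings given above. At a threshold of 0.01 it was 1547 higher and 1993 lower, and at a minimum log2 change of 1 it was 1870 (764 and 1106). With a Student reference on 4 degrees of freedom 0 were called, 0 higher and 0 lower (4170 at an unadjusted p under 0.05), and Qk kept its log2 change of 0.66 with an adjusted p of 0.107. Qk, at 0.66, also lay under the minimum log2 change of 1. The shift between scalings turned the sign of uncalled changes near 0 and of no called gene named here. On total scaling these became 0.046 for Celf2, 0.059 for Esr1, 0.037 for Ifnar1, 0.060 for Ptbp2, 0.048 for Stat2, 0.025 for Tfeb and 0.048 for Ugt8a. Without mitochondrial genes in the total, a scaling chosen after seeing the data, they were 0.078 for Celf2, 0.090 for Esr1, 0.069 for Ifnar1, 0.016 for Irf9, 0.018 for Pcna, 0.092 for Ptbp2, 0.080 for Stat2, 0.057 for Tfeb and 0.080 for Ugt8a. The difference from callosum was called for 1496 genes above and 2015 below when each table was centred, and for 1581 and 1787 at a mean of at least 50 in both. No paired analysis was possible because the library columns hold fitted means without a value per culture, and for the same reason no culture could be left out in turn and no other count test was run. Low levels limit the calls, with a median SE of 0.54 among the genes with the lowest means.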

Other observations

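Imprinted genes, which are expressed from 1 parental copy, rose in 16 of 36 tested cases and fell in 2 (median log2 change 0.47), against 13.6% and 15.6% of all genes. The zinc finger gene Peg3 rose from 84.4 to 155 fitted CPM, Snrpn from 57.9 to 115 and Nap1l5 from 65.4 to 141, while Mest fell from 63.8 to 33.8 and Cd81 from 1108 to 623. Several lie within or opposite another gene, such as Snhg14 (34.1 to 68.01) and Ube3a (119 to 174), and with the strand setting not given their reads cannot be told apart. This list and those below were drawn up after values had been seen.

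Genes of the growing neuronal cytoskeleton rose in 17 of 32 cases and fell in 2. The collapsin response mediator genes Crmp1 (36.02 to 165 fitted CPM) and Dpysl3 (177 to 462) and the stathmin Stmn3 (45.5 to 246) rose, and Tuba4a and Map7 (18.4 to 9.59) fell. Mitochondrial carriers gave 2 rises and 7 falls in 20, with the dicarboxylate carrier Slc25a10 lower (27.5 to 11.6) and the aspartate-glutamate carrier Slc25a12 higher (66.4 to 102). Genes of creatine and urea metabolism gave 2 and 5 in 10, and both enzymes of creatine synthesis, Gatm and Gamt (10.7 to 4.96), fell. Of 13 acetylcholine receptor genes and related enzymes, Chrnb2 and Chrna4 (20.1 to 33.5), which join in 1 receptor, rose and no other was called.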
